A study of Mus musculus with 5 samples.

Results

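Chemokines are small secreted or membrane-bound proteins, and their receptors are the surface proteins through which leukocytes and some resident cells sense them. The genes were taken by symbol, as all Ccl, Cxcl, Cx3cl and Xcl ligands, all Ccr, Cxcr, Cx3cr and Xcr receptors, the atypical receptors Ackr1 to Ackr4, and Ccrl2. The rule matched 61 of the 35478 genes in the count tables, 38 ligands and 23 receptors. Of these, 45 reached 10 reads in at least 1 library and 16 did not, and 42 passed the filter on low counts and were tested (29 ligands and 13 receptors).

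A chemokine binds a receptor coupled to an inhibitory G protein, and the cell then moves up the gradient of its ligand. Several ligands share a receptor and several receptors share a ligand, so the pairs form overlapping axes: Ccl2, Ccl7 and Ccl12 with Ccr2 on classical monocytes, Cxcl1, Cxcl2 and Cxcl5 with Cxcr2 on neutrophils, Cxcl9 and Cxcl10 with Cxcr3 on T cells, Cx3cl1 with Cx3cr1 on macrophages. Injured tubular epithelium and the leukocytes that enter the kidney are both known sources of inflammatory chemokines. Atypical receptors bind chemokines without coupling to G proteins and take them up.

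Kidneys of 2 Prdm16fl/fl and of 3 Ksp-Cre/Prdm16fl/fl mice were sequenced, and the comparison asks what loss of the transcription factor PRDM16 from the tubule does to gene expression after unilateral ischemia-reperfusion injury (UIRI). The mice were male and 7 to 8 weeks old. The authors' methods give the strain as C57BL/6J;129, while the sample labels name C57BL/6J. Both groups carried loxP sites around exon 9 of Prdm16 (genotypes given as PRDM16flox/flox, with or without Ksp-cre). Ksp-Cre is driven in tubular epithelial cells, so other cell types keep the gene. In every mouse the left renal pedicle was clamped for 35 minutes at 38.5°C, the right kidney was taken out on day 10, and cortex of the injured kidney was collected 24 hours later, on day 11. All 5 mice were injured, so the values compare 2 genotypes after injury and hold no uninjured level.

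Reads counted per gene summed to between 14939040 and 16425161 per library, and the reads of the 61 genes took 588 to 1313 of each 1000000 of them. Levels are given below as normalised read counts (CPM, counts per 1000000 reads after scaling by the trimmed mean of M values), unless they are named as TPM, which also divides by gene length. Prdm16 itself stood at 25.3 and 20.02 CPM in the Prdm16fl/fl mice and at 17.1, 17.0 and 18.0 in the knockout mice. Its log2 fold change of -0.38 (SE 0.15) did not pass the test (adjusted p = 0.259), and its reads come from the whole gene and from all cells of the tissue. Proximal tubule markers were abundant in all 5 libraries but lower in the knockout mice. Summed over 10 genes they stood at 21580 and 27890 CPM in the Prdm16fl/fl mice and at 6979, 8790 and 11360 CPM in the knockout mice. All 10 had a negative log2 fold change, with a median of -1.31. The part of this difference in the values below was not tested.

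Ksp-Cre/Prdm16fl/fl mouse 3 stood apart. The first principal component held 56.7% of the variance and placed it at 62.0, with the other 4 libraries between -33.0 and 0.0711. Chemokine and receptor genes took 588 of each 1000000 reads in this library, against 1159 and 1313 in mice 1 and 2 of its group and 855 and 935 in the Prdm16fl/fl mice. It was the lowest of the 5 libraries for 30 of the 42 tested genes (71.4%), compared with 32.0% of all 16394 tested genes, and the highest for Ccr1 and Cxcr4 (4.76%, compared with 32.0% of all genes). For the genes whose pattern rests on this mouse, values without it are therefore given as well. Where no genotype is named below, mice 1, 2 and 3 are those with Ksp-Cre, also called knockout mice.

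A gene was called where its adjusted p was under 0.05 and its group means differed by 1 or more on the log2 scale. By this rule 1 of the 42 genes was higher in Ksp-Cre/Prdm16fl/fl kidneys, the receptor gene Ccr1, where 0.0793% of all tested genes were. None was lower, where 0.628% of all tested genes were, and DESeq2 in place of edgeR called 2 higher (Ccr1 and Cxcr2, beside 0.689% of all genes) and 1 lower (Ccl28, beside 2.33%). At an unadjusted p under 0.05 the counts were 3 genes higher (Ccr1, Cxcr2 and Cxcl17) and 3 genes lower (Ccl28, Cxcl12 and Ccl27a). Those are 7.14% of the tested members in each direction, near or under the 7.64% of all genes that were higher and the 11.2% that were lower. The groups did not overlap for 3 members that were higher (7.14%, beside 20.3% of all genes) and 5 that were lower (11.9%, beside 21.3%), together 8 members (19.0%) against 41.6% of all genes, so the family as a whole was not separated by genotype more often than other genes. The log2 fold change was above 0 for 25 members (59.5%, beside 54.0% of all genes), 15 of 29 ligands and 10 of 13 receptors. Its median was 0.13 over the 42 genes, 0.065 over the ligands and 0.22 over the receptors, beside 0.038 over all tested genes.

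**Figure D1:**
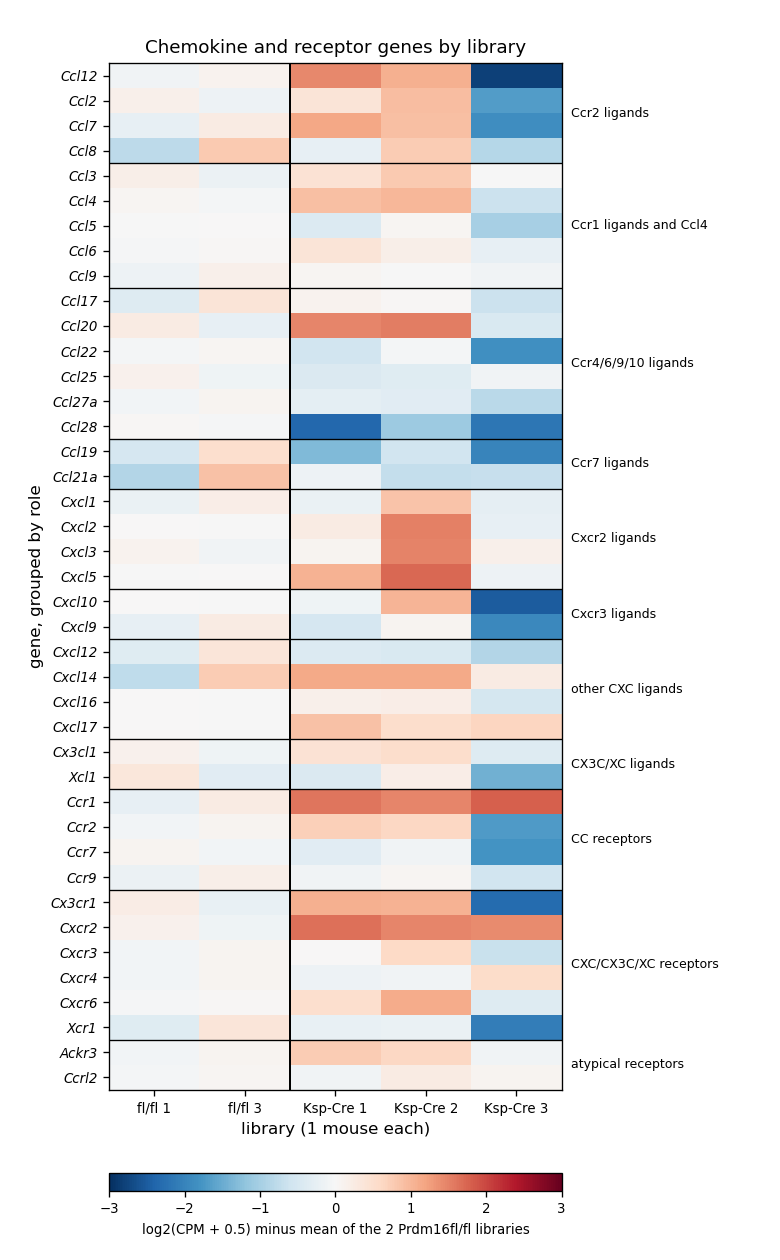
Heat map of 41 tested genes (vertical axis, grouped by role) in the 5 libraries (horizontal axis, fl/fl for Prdm16fl/fl and Ksp-Cre for Ksp-Cre/Prdm16fl/fl, with the mouse number). Colour is log2(CPM + 0.5) minus the mean of both Prdm16fl/fl libraries, red for higher and blue for lower; Ccr1 and Cxcr2 are red in all 3 Ksp-Cre columns, while most other genes that are red in mice 1 and 2 are blue in mouse 3.

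Ccr1, the receptor of monocytes, macrophages and neutrophils for Ccl3, Ccl5, Ccl6 and Ccl9, rose in the injured kidneys that lacked tubular PRDM16. Its level was 4.31 and 6.31 CPM in the Prdm16fl/fl mice and 16.8, 15.3 and 19.3 CPM in the Ksp-Cre/Prdm16fl/fl mice. All 3 knockout kidneys lay above both controls, by more than the spread within either group (5.31 ± 1.41 and 17.1 ± 1.997, mean ± SD). The log2 fold change was 1.69 (SE 0.24, adjusted p = 0.0443), a 3.22-fold difference. Without mouse 3, which had the highest value, it was 1.60 (adjusted p = 0.00173). The call was lost when any 1 of the other 4 mice was left out. With 1 control left out, which leaves 1 in that group, the log2 fold change was 1.43 or 1.98. Without mouse 1 or mouse 2 it was 1.70 and 1.76 (adjusted p = 0.13 and 0.145). In neither of those fits was any gene of the whole table called (0 higher and 0 lower). Removing a trend with gene length and GC content also lost the call (1.82, adjusted p = 0.0615).

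Ccr1 lies in a cluster of receptor genes on chromosome 9, between 123596276 and 123934153 in the files' own coordinates, whose mouse build they do not name. Ccr9, Cxcr6, Xcr1, Ccr3 and Ccr2 lie in it too, and of these the tested genes, Ccr9, Cxcr6, Xcr1 and Ccr2, did not pass. Mouse 3 was lowest of the 5 libraries for each of the latter. Ccr2, the receptor that classical monocytes need to leave the bone marrow, was at 77.7 and 87.0 CPM in the Prdm16fl/fl mice and at 135, 127 and 24.8 in the Ksp-Cre/Prdm16fl/fl mice. Mice 1 and 2 lay above the controls and mouse 3 below them, so the groups overlapped. Its log2 fold change was 0.22 (SE 0.65, adjusted p = 0.885) over 5 libraries and 0.67 without mouse 3 (adjusted p = 0.00379).

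The CC receptors Ccr7 and Ccr9 were scarce. Ccr7, which guides dendritic cells and naive T cells to lymph nodes, was at 3.30 and 2.87 CPM in the Prdm16fl/fl mice and at 2.33, 2.83 and 0.533 in the Ksp-Cre/Prdm16fl/fl mice. The knockout kidneys lay below the controls, though mice 1 and 2 only narrowly, and the difference of -0.69 on the log2 scale (SE 0.61) did not pass (adjusted p = 0.585), and was -0.26 without mouse 3. Ccr9, the gut-homing receptor for Ccl25, had the lowest mean TPM of the 42 genes, 0.408 and had 6 to 15 reads per library.

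Cxcr2, the receptor through which neutrophils follow Cxcl1, Cxcl2 and Cxcl5, had the largest positive fold change of the family in the fit of all 5 libraries. It was at 0.607 and 0.431 CPM (9 and 6 reads) in the Prdm16fl/fl mice and at 2.67, 2.30 and 2.20 CPM (47, 39 and 33 reads) in the Ksp-Cre/Prdm16fl/fl mice. The 2 groups were far apart and each was tight. On the log2 scale the difference was 2.18 (SE 0.36), and the adjusted p of 0.0544 missed the threshold. It passed without mouse 3 (2.24, adjusted p = 0.00492) and with DESeq2 (2.20, adjusted p = 0.00392). Of 9 neutrophil markers, Ly6g never exceeded 1 read, Mpo was at 0 in every library and 4 were tested, none of which was called by edgeR or DESeq2. S100a8 had 25 and 9 reads in the Prdm16fl/fl mice and 44, 65 and 40 in the Ksp-Cre/Prdm16fl/fl mice, without overlap (unadjusted p = 0.0292, adjusted p = 0.211), and S100a9 overlapped. The summed level of the 4 was 17.1 to 18.6 CPM in the Prdm16fl/fl mice and 18.3 to 32.8 CPM in the Ksp-Cre/Prdm16fl/fl mice, and the part of these cells in the Cxcr2 result was not tested.

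Cx3cr1, the fractalkine receptor of resident macrophages and patrolling monocytes, showed the widest gap between knockout mice among the receptors on the log2 scale. It was at 28.5 and 20.7 CPM in the Prdm16fl/fl mice and at 51.3, 50.4 and 4.46 in the Ksp-Cre/Prdm16fl/fl mice. Mice 1 and 2 had about the same value, above both controls, and mouse 3 lay far below. The log2 fold change of 0.53 (SE 0.88, adjusted p = 0.783) over all libraries became 1.05 (SE 0.15, adjusted p = 0.0030) without mouse 3, which put the gene past both thresholds.

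Cxcr4, the receptor for Cxcl12, was the other gene that was highest in mouse 3. It was at 18.7 and 21.4 CPM in the Prdm16fl/fl mice and at 18.1, 18.5 and 29.6 in the Ksp-Cre/Prdm16fl/fl mice. Only mouse 3 lay outside the control range on the upper side, and the sign of the fold change rests on it: 0.14 with it and -0.13 without it (adjusted p = 0.807 and 0.519). Cxcr3, which marks activated T cells, was at 5.93 and 6.60 CPM and at 6.36, 9.69 and 3.73, and Cxcr6, a receptor of tissue-resident T cells, at 8.09 and 8.54 CPM and at 12.1, 18.7 and 6.20. Neither passed over 5 libraries (log2 fold changes 0.076 and 0.57, adjusted p = 0.935 and 0.528). Without mouse 3 Cxcr6 was at 0.89 with an adjusted p of 0.0240, past the threshold on p but not that on size, and Cxcr3 at 0.36 (adjusted p = 0.317). Cxcr6 overlaps Fyco1 on the opposite strand, a gene with 789 to 1025 reads per library, and without a stated strand setting the reads of both cannot be told apart. Xcr1, the receptor of cross-presenting dendritic cells, had 40 to 66 reads in the other 4 libraries and 7 in mouse 3.

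Of the atypical receptors, Ackr3 and Ccrl2 were tested. Ackr3, which scavenges Cxcl12, had the highest receptor level per length at a mean of 62.2 TPM. It was at 45.2 and 50.1 CPM in the Prdm16fl/fl mice and at 80.5, 73.3 and 43.8 in the Ksp-Cre/Prdm16fl/fl mice, again with mice 1 and 2 above the controls and mouse 3 below them. Its log2 fold change was 0.47 (SE 0.26, adjusted p = 0.394), and 0.70 without mouse 3 (adjusted p = 0.00364). Ccrl2, which presents chemerin, was nearly level in all libraries, at 5.28 to 6.85 CPM (log2 fold change 0.079, SE 0.22, adjusted p = 0.879).

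**Figure D2:**
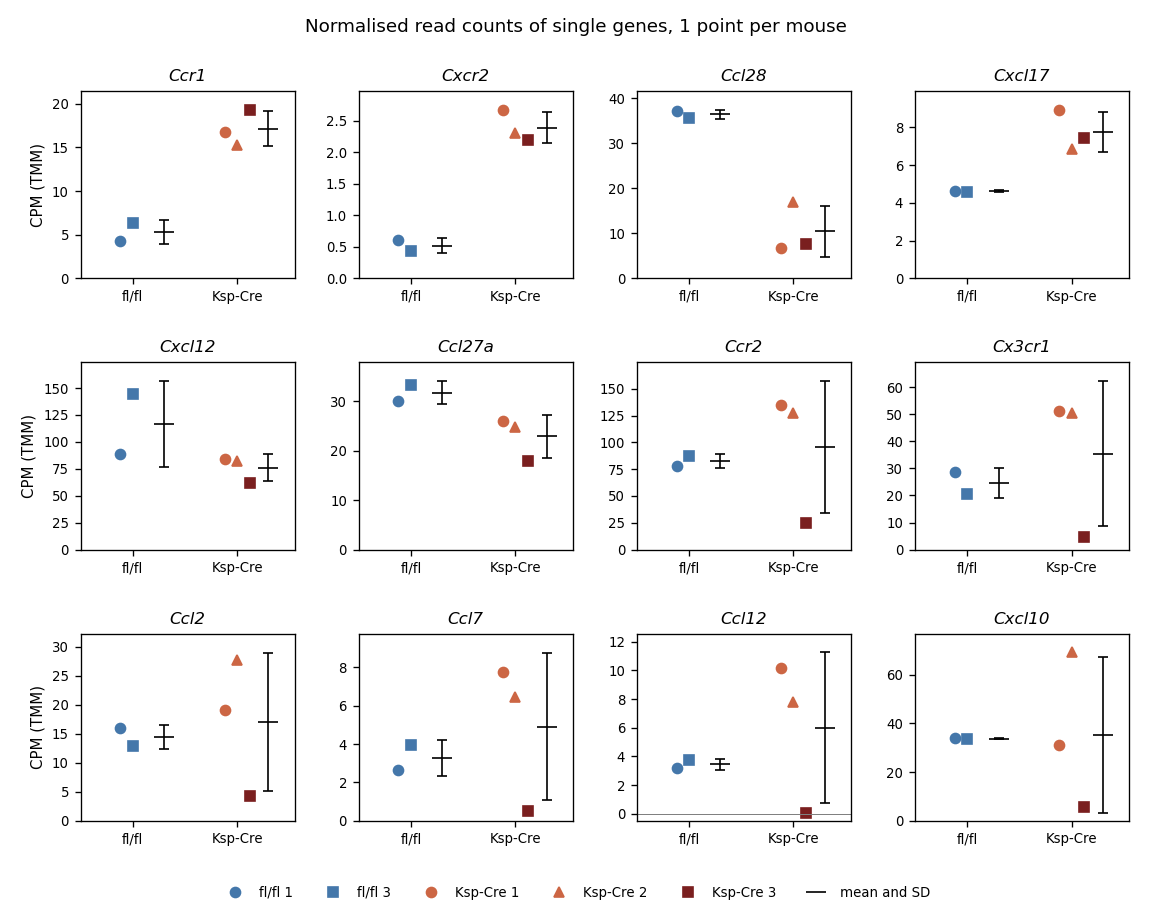
Normalised read count (CPM, vertical axes, each with its own scale) of 12 genes in the 2 Prdm16fl/fl (fl/fl) and 3 Ksp-Cre/Prdm16fl/fl (Ksp-Cre) mice, 1 point per mouse, with the group mean and SD beside the points. Ccr1, Cxcr2 and Cxcl17 are higher and Ccl28, Cxcl12 and Ccl27a lower in all 3 Ksp-Cre mice, while Ccr2, Cx3cr1, Ccl2, Ccl7 and Ccl12 are higher in mice 1 and 2 and lowest in mouse 3.

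Among the ligands, Ccl28 showed the clearest difference. This mucosal chemokine is made by epithelial cells and binds Ccr10 and Ccr3. It was at 37.1 and 35.7 CPM in the Prdm16fl/fl mice and at 6.70, 16.9 and 7.66 CPM in the Ksp-Cre/Prdm16fl/fl mice. All 3 knockout kidneys lay below both controls (10.4 ± 5.63 and 36.4 ± 0.951, mean ± SD), with mouse 2 nearest to them. On the log2 scale the difference was -1.80 (SE 0.39), and the adjusted p of 0.0877 missed the threshold. It passed without mouse 3 (-1.63, adjusted p = 0.0106) and with DESeq2 (-1.81, adjusted p = 0.000492). Its receptors Ccr10 and Ccr3 had at most 10 and 3 reads in any library.

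Ccl27a, the skin T cell chemokine that also binds Ccr10, was at 30.1 and 33.4 CPM in the Prdm16fl/fl mice and at 25.9, 24.8 and 18.0 in the Ksp-Cre/Prdm16fl/fl mice. The groups did not overlap, and the difference was small, at -0.47 on the log2 scale (SE 0.19, adjusted p = 0.258). The gene has a near-identical copy, Ccl27b, with at most 2 reads, so the split of reads between them is uncertain. Ccl20, the epithelial ligand of Ccr6, was at 1.82 and 1.15 CPM in the controls and at 4.94, 5.14 and 0.933 in the knockout mice. It reached a log2 fold change of 1.75 without mouse 3 (adjusted p = 0.00515), from 1.31 with it (SE 0.74, adjusted p = 0.398). The Ccr4 ligands Ccl17 and Ccl22 and the Ccr9 ligand Ccl25 had log2 fold changes of -0.22, -0.76 and -0.32, and none passed.

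Cxcl17, a mucosal chemokine, was at 4.65 and 4.59 CPM in the Prdm16fl/fl mice and at 8.91, 6.85 and 7.46 CPM in the Ksp-Cre/Prdm16fl/fl mice. The groups did not overlap and both controls were close to each other. Its log2 fold change was 0.74 (SE 0.22, adjusted p = 0.162), and 0.77 without mouse 3 (adjusted p = 0.0382). The gene shares its locus with 4732471J01Rik on the other strand, which had 17 to 33 reads per library against 64 to 157 for Cxcl17.

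Cxcl12, the stromal chemokine that retains leukocytes through Cxcr4, was at 88.4 and 145 CPM in the Prdm16fl/fl mice and at 84.4, 82.4 and 61.4 in the Ksp-Cre/Prdm16fl/fl mice. The groups did not overlap, but Prdm16fl/fl mouse 1 lay closer to the knockout mice than to the other control. The log2 fold change was -0.61 (SE 0.24, adjusted p = 0.254), and between -0.93 and -0.22 as single mice were left out. With its receptors, the axis thus had a lower ligand in all 3 knockout mice, Cxcr4 near the control level in mice 1 and 2, and Ackr3 above it in those mice. Cxcl14, an epithelial and stromal chemokine, ranged from 6.94 to 20.7 CPM in the controls alone.

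Of the 4 tested ligands of Ccr2, 3 had the pattern of their receptor. Ccl2, the main monocyte attractant, was at 15.98 and 12.99 CPM in the Prdm16fl/fl mice and at 19.1, 27.8 and 4.20 in the Ksp-Cre/Prdm16fl/fl mice. Ccl7 was at 2.63 and 3.95 CPM and at 7.78, 6.44 and 0.533. Ccl12, the mouse relative of Ccl2, was at 3.17 and 3.73 CPM and at 10.2, 7.80 and 0.0666, which in mouse 3 is a single read. For these 3 genes mice 1 and 2 lay above both controls and mouse 3 below both. Ccl2, Ccl7 and Ccl12 had log2 fold changes of 0.24, 0.59 and 0.81 over 5 libraries (adjusted p = 0.879, 0.768 and 0.76) and of 0.70, 1.12 and 1.39 without mouse 3 (adjusted p = 0.0400, 0.0184 and 0.00503). Ccl8 varied within the controls, at 1.01 and 4.02 CPM, and did not follow the pattern. Summed over the 4 ligands, the level was 22.8 and 24.7 CPM in the controls and 38.8, 46.0 and 5.73 CPM in the knockout mice.

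The ligands of Ccr1 did not move with their receptor. Ccl9 and Ccl6, the main mouse ligands of Ccr1, were among the more abundant genes per length, at means of 40.8 and 77.8 TPM. Ccl9 was at 45.5 and 56.97 CPM in the Prdm16fl/fl mice and at 53.3, 50.3 and 47.2 in the Ksp-Cre/Prdm16fl/fl mice, and all 3 knockout values lay between the controls. Ccl6 was at 42.3 and 44.2 CPM and at 56.7, 48.6 and 36.3. Their log2 fold changes were -0.028 (SE 0.14) and 0.13 (SE 0.20), with adjusted p of 0.929 and 0.77. Ccl5, the product of T and NK cells that also binds Ccr1, was at 18.5 and 18.9 CPM and at 13.9, 19.5 and 9.06, a log2 fold change of -0.40 (SE 0.31, adjusted p = 0.527). Ccl3 and Ccl4 stood at 0.431 to 2.48 CPM, and Ccl4 passed both thresholds without mouse 3 (1.25, adjusted p = 0.0264).

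The ligands of Cxcr2 were set apart by a different mouse. Cxcl1, the gene with the highest mean level per length (216 TPM), was at 66.1 and 87.7 CPM in the Prdm16fl/fl mice and at 66.6, 137 and 63.4 in the Ksp-Cre/Prdm16fl/fl mice. Cxcl2 was at 17.1 and 16.8 CPM and at 20.3, 48.9 and 14.1, and Cxcl3 at 0.809 and 0.646 CPM and at 0.795, 2.95 and 0.866. Cxcl5 was at 8.97 and 9.11 CPM and at 19.2, 30.9 and 8.06. Mouse 2 was the highest library for all 4 genes, and for Cxcl1, Cxcl2 and Cxcl3 mouse 1 was near the controls. The 4 log2 fold changes lay between 0.21 and 1.10 (adjusted p from 0.327 to 0.792). Their median was 0.89, and 0.10 without mouse 2, so the size of this difference rests on 1 mouse. Without mouse 3 Cxcl5 passed both thresholds (1.47, adjusted p = 0.00343), and Cxcl2 went from 0.71 to 1.03 and did not pass (adjusted p = 0.0662).

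Mouse 2 was the highest of the 5 libraries for 17 of the 42 genes (40.5%), compared with 14.9% of all tested genes. These included Cxcl10, an interferon-induced attractant of Cxcr3-bearing T cells with the third highest mean TPM (78.2). It was at 33.9 and 33.7 CPM in the Prdm16fl/fl mice and at 31.1, 69.2 and 5.60 in the Ksp-Cre/Prdm16fl/fl mice, so the single knockout values lay at, above and below the controls. The fold change of 0.065 on the log2 scale (SE 0.84, adjusted p = 0.974) describes none of the 3, and without mouse 3 it was 0.57 (adjusted p = 0.215). Cxcl9, the other tested ligand of Cxcr3, was at 7.21 and 10.3 CPM and at 5.96, 9.22 and 1.87, with a log2 fold change of -0.61 over 5 libraries and -0.20 without mouse 3 (adjusted p = 0.613 and 0.620). Cxcl10 overlaps Art3 on the opposite strand, which had 27 to 41 reads per library.

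Promoters were searched for 3 motifs of transcription factors that are known to act on inflammatory genes. RefSeq sequence from 250 bases before to 50 after the start (build GRCm38.p6) was at hand for 47 of the 61 genes, 33 of them tested. A kappaB motif, the binding sequence of NF-kappaB, was matched on either strand in 11 of the 47 (23.4%), beside 5.14% of all 27025 genes with a promoter entry. The interferon-stimulated response element (GAAA, any 2 bases, GAAA) was matched in 3 (6.38%, beside 3.99%) and the AP-1 motif (TGANTCA) in 8 (17.0%, beside 8.97%). Of the 8 tested genes with a kappaB match, mouse 2 was the highest library for 6 (Ccl20, Ccrl2, Cxcl1, Cxcl2, Cxcl3 and Cxcl10), and of the 25 tested genes with a promoter and no match for 5. Over all tested genes it was the highest library for 18.3% of the 804 with a kappaB match and for 14.6% of the 12091 without. The 6 are not independent, since Cxcl1, Cxcl2 and Cxcl3 lie in 1 cluster and share the matched sequence, and no test was made. The stretches of 80 bases that hold the match are printed 5′ to 3′ on the gene's strand for 5 of these 6 genes and for Ccl9, which carries the motif and differed little between mice. Capitals mark the matched letters of the kappaB motif, and in Ccl9 also an AP-1 match before it.
Cxcl1 (chr5:90891130-90891209, plus strand): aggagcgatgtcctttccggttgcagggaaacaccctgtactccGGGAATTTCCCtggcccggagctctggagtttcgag
Cxcl2 (chr5:90903758-90903837, plus strand): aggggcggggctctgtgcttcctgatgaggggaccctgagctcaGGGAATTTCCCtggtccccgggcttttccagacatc
Cxcl3 (chr5:90785984-90786063, plus strand): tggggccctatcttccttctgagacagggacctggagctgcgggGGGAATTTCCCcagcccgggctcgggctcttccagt
Cxcl10 (chr5:92348958-92349037, minus strand): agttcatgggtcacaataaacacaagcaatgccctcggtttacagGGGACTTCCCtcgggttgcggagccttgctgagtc
Ccl20 (chr1:83116641-83116720, plus strand): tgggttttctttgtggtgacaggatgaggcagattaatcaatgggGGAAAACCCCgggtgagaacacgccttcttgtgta
Ccl9 (chr11:83578637-83578716, minus strand): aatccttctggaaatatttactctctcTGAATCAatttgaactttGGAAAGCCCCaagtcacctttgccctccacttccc
Cxcl1, Cxcl2 and Cxcl3 share the run GGGAATTTCCC, in which the motif matches at 2 overlapping positions, and it begins at positions -71, -97 and -73 from the start site. These matches are a description of letters in the window and show no binding.

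The remaining ligands were Cxcl16, Cx3cl1, Xcl1 and those of Ccr7. Cxcl16, the membrane-bound ligand of Cxcr6, was the second most abundant gene per length (195 TPM), at 148 and 145 CPM in the Prdm16fl/fl mice and at 162, 168 and 101 in the Ksp-Cre/Prdm16fl/fl mice. Its log2 fold change was -0.03 (SE 0.23, adjusted p = 0.957). Cxcl16 overlaps Zmynd15 on the opposite strand by 552 bases, a gene with 693 to 1527 reads per library, fewest in mouse 3. Cx3cl1, the ligand of Cx3cr1 that is shed from epithelium and endothelium, was at 42.3 and 35.2 CPM and at 52.3, 55.9 and 29.2. Cxcl16 and Cx3cl1 were above the controls in mice 1 and 2 and below them in mouse 3. Cx3cl1 reached an adjusted p of 0.0246 without mouse 3 at a log2 fold change of 0.48. The Ccr7 ligands Ccl19 and Ccl21a also varied between the 2 controls, at 0.876 and 2.30 CPM for Ccl19 and 1.96 and 7.75 CPM for Ccl21a. Ccl19 was at 0.284, 0.827 and 0 CPM in the Ksp-Cre/Prdm16fl/fl mice, below both controls. Its fitted log2 fold change, the lowest of the family, was -2.04 (SE 0.97, adjusted p = 0.322) on 0 to 32 reads per library, and it did not pass without mouse 3 either (adjusted p = 0.117). Ccl21a has near-identical copies, of which Ccl21b had at most 2 reads and Ccl21d none, so the split between them is uncertain. Xcl1, a product of T and NK cells, had 8 to 18 reads in 4 libraries and 0 in mouse 3, which allows up to 0.200 CPM.

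**Figure D3:**
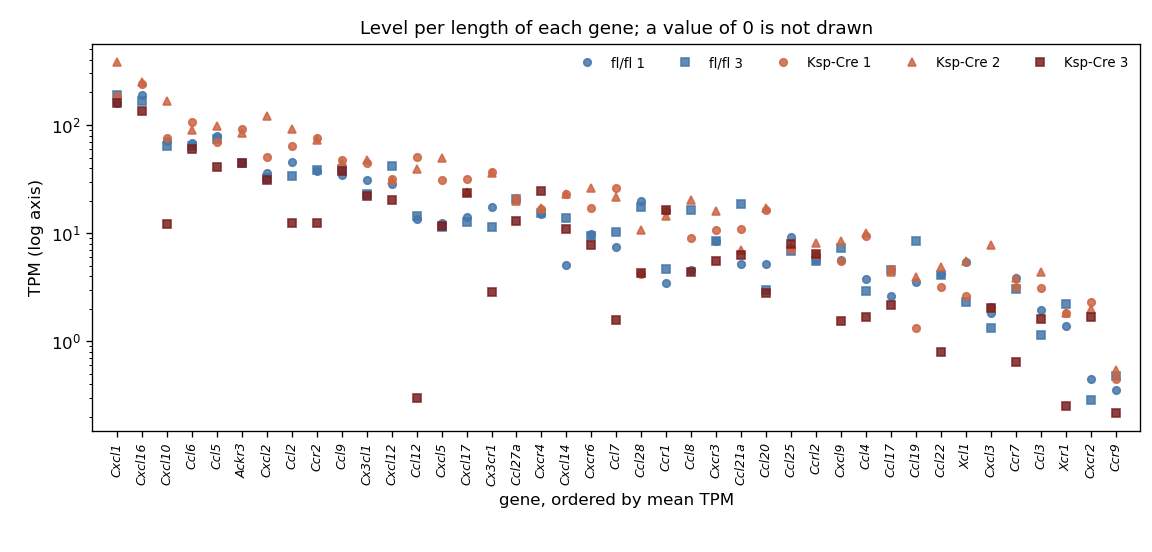
Level per length (TPM, log axis) of 41 tested genes in each of the 5 mice, ordered along the horizontal axis by mean TPM, from Cxcl1 at 216 to Ccr9 at 0.408. Points of Ksp-Cre mouse 3 lie below the others for many genes and lowest relative to them for Ccl12.

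Per length, 2 genes had a mean of at least 100 TPM (Cxcl1 and Cxcl16), 7 of at least 50 TPM, 25 of at least 10 TPM and 41 of at least 1 TPM. Neighbours in this order mostly differed by less than their spread over mice: Cxcl10, Ccl6, Ccl5 and Ackr3 followed each other at means of 78.2, 77.8, 72.6 and 62.2 TPM, while Cxcl10 alone ranged from 12.2 to 168 TPM. Summed over the tested ligands the level was 887 and 909 TPM in the Prdm16fl/fl mice and 1180, 1617 and 626 TPM in the Ksp-Cre/Prdm16fl/fl mice. Summed over the tested receptors it was 157 and 153 TPM and 298, 301 and 129 TPM.

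Genes outside the fit were few in reads. Ackr1, Ccl21d, Ccl26 and Cxcl15 were at 0 in all 5 libraries, which allows at most 0.170 to 0.215 CPM in each. Another 12 genes had 1 to 9 reads at most and count as not measured: the ligands Ccl1, Ccl11, Ccl24, Ccl21b and Ccl27b, the receptors Ccr3, Ccr4, Ccr8, Cxcr1 and Cxcr5, and the atypical receptors Ackr2 and Ackr4. The threshold of 10 reads fell between Ccr4, with at most 9, and Ccr10, with at most 10, followed by Ccr6 with 11. Cxcl13, the B cell chemokine, had 8 and 15 reads in the Prdm16fl/fl mice and 1, 1 and 2 in the Ksp-Cre/Prdm16fl/fl mice; it and Ccr6 and Ccr10 were measured but left out by the filter and have no test.

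The pattern that set the family apart was the split among the knockout mice. For 15 of the 42 genes (35.7%) mice 1 and 2 lay above both controls and mouse 3 below both, compared with 8.52% of all tested genes. They included the ligands Ccl2, Ccl4, Ccl6, Ccl7, Ccl12, Ccl20, Cx3cl1, Cxcl2, Cxcl5 and Cxcl16 and the receptors Ackr3, Ccr2, Cx3cr1 and Cxcr6. The median difference of the 42 genes from the mean of the controls was 0.089 and 0.56 on the log2 scale in mice 1 and 2 and -0.64 in mouse 3, whereas over all tested genes it was 0.00037, 0.025 and -0.00089. When mouse 3 was left out, 8 members were called higher (Ccl4, Ccl7, Ccl12, Ccl20, Ccr1, Cx3cr1, Cxcl5 and Cxcr2; 19.0%, beside 1.43% of all genes) and Ccl28 lower (2.38%, beside 3.10%). With the adjusted p alone 16 members passed (38.1%, beside 18.9%), and the groups did not overlap for 20 that were higher (beside 33.3%) and 8 that were lower (beside 30.4%). The median over the 42 genes was then 0.38 in place of 0.13 (0.29 for ligands and 0.67 for receptors), and over all genes it was 0.018. That comparison has 2 mice a side, and the mouse was left out after its values were seen.

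**Figure D4:**
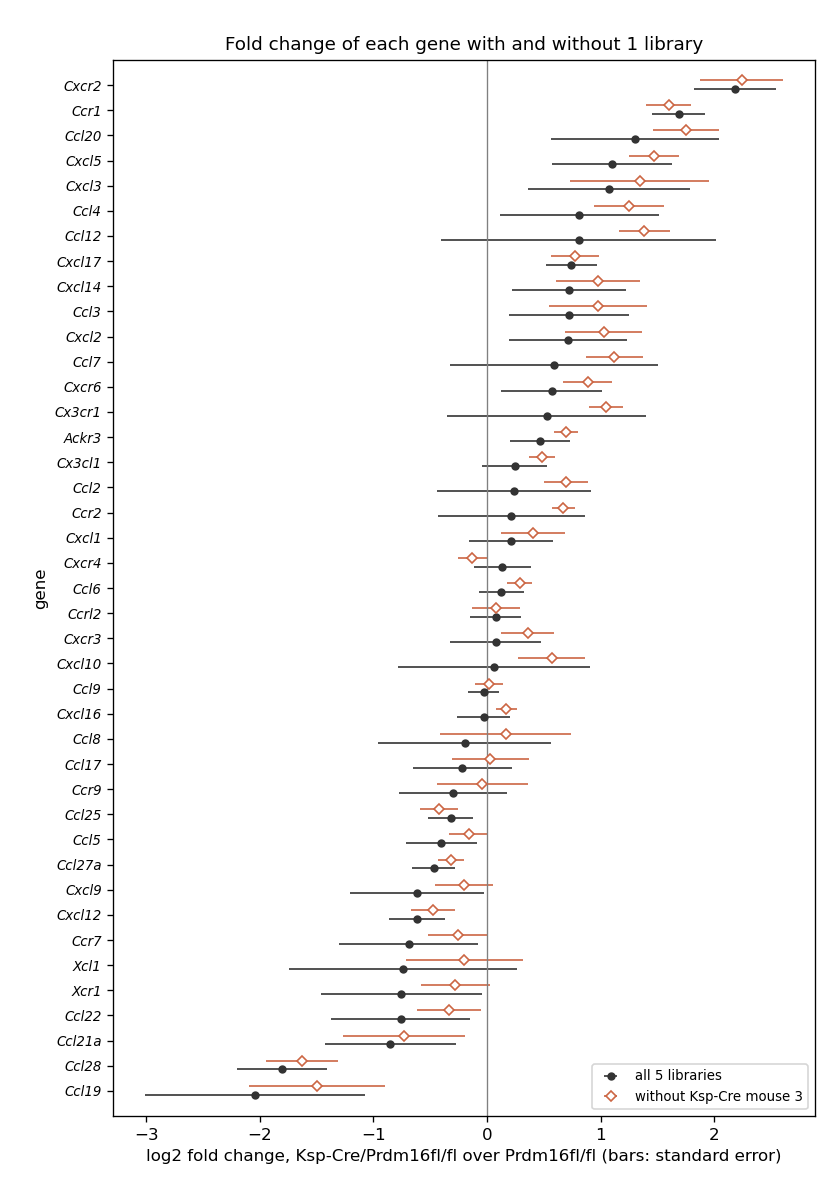
Log2 fold change of Ksp-Cre/Prdm16fl/fl over Prdm16fl/fl (horizontal axis) with its standard error for each of 41 tested genes, from the fit of all 5 libraries (filled circles) and without Ksp-Cre mouse 3 (open diamonds). Cxcr2, Ccr1, Cxcl17 and Ccl28 have bars that stay clear of 0 in both fits, as do others, among them Cxcl12, Ccl27a and Cxcl5. Ccl12, Ccl7, Cx3cr1, Ccl2 and Ccr2 lie further to the right with shorter bars without mouse 3.

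The summed level of 4 leukocyte marker lists was lowest in mouse 3: pan-leukocyte, macrophage and monocyte, dendritic cell, and T and NK cell. The B and plasma cell list was lowest in mouse 1 (32.58 CPM, and 36.58 in mouse 3). The neutrophil list was lowest in a Prdm16fl/fl mouse (17.15 CPM, and 18.26 in mouse 3). In bulk tissue fewer cells of a type and less RNA per cell cannot be told apart. The 6 pan-leukocyte markers summed to 382 and 412 CPM in the Prdm16fl/fl mice and to 482, 493 and 297 CPM in the Ksp-Cre/Prdm16fl/fl mice. The 12 macrophage and monocyte markers summed to 1117 and 1541 CPM and to 1752, 1640 and 1052 CPM. Within that list the members did not share 1 order in mouse 3. Ly6c2, a marker of classical monocytes, had 14 reads there and 56 to 82 elsewhere. Adgre1 had 185 against 541 to 911, Lyz2 3439 against 6888 to 13603 and Fcgr1 109 against 162 to 441, all lowest in mouse 3. Csf1r had 1550 against 1516 to 2619, and Cd14 had 2645, its highest. Mertk was also highest in mouse 3, with 1441 against 899 to 1273. In CPM, Cd68, C1qa, C1qb, C1qc and Mrc1 lay within the control range in mouse 3. The 7 dendritic cell markers, Xcr1 among them, summed to 59.2 and 58.1 CPM and to 64.7, 66.2 and 28.0 CPM, and the 9 tested T and NK cell markers to values between 38.3 and 75.3 CPM, lowest in mouse 3. Among the dendritic cell markers Clec9a was at 12.1 and 12.3 CPM in the controls and at 2.20 in mouse 3, and Cd209a at 15.8 and 12.6 and at 2.27. Itgae, Siglech and Xcr1 were also lowest in mouse 3. Zbtb46 differed little, at 19.4 and 17.7 CPM in the controls and at 16.5 in mouse 3. Flt3 was at 4.045 and 5.381 CPM in the controls and at 5.197 in mouse 3, within the control range. No marker of these 4 lists (34 tested) was called by edgeR, 3 had an unadjusted p under 0.05, and DESeq2 called Cd14 higher. Their part in the chemokine results was not tested.

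**Figure D5:**
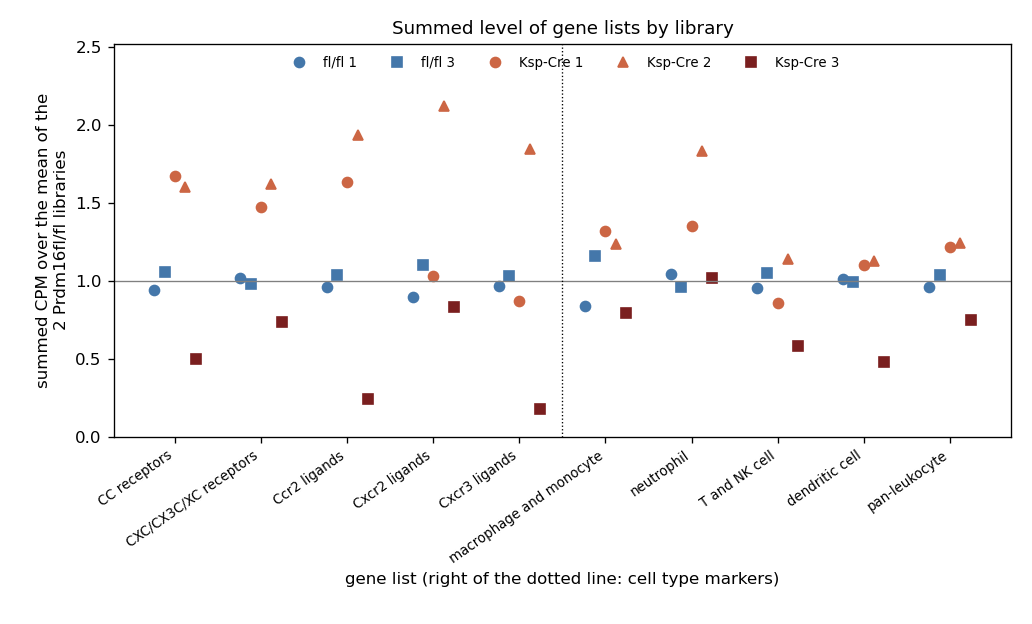
Summed CPM of 5 groups of chemokine or receptor genes and 5 lists of cell type markers (horizontal axis) in each mouse, divided by the mean of both Prdm16fl/fl mice (vertical axis, starting at 0). Ksp-Cre mouse 3 is the lowest point for every list drawn except that of neutrophils, and lies furthest below the controls for the Ccr2 and Cxcr3 ligands.

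Other genes of the pathway were read from lists of inducers, signalling proteins, proteases and adhesion molecules. None of the 73 tested was called by edgeR or DESeq2, and 13 were higher and 0 lower at an unadjusted p under 0.05. Of 28 tested NF-kappaB and cytokine genes that induce chemokines, all 28 had a positive log2 fold change (median 0.33), 8 had an unadjusted p under 0.05 and 11 did not overlap, compared with 7.64% and 20.3% of all genes that were higher by these measures. The 3 with the smallest p were Nfkbiz, an inducible NF-kappaB cofactor (log2 fold change 0.57, adjusted p = 0.0831), the Toll-like receptor adaptor Myd88 (0.49, adjusted p = 0.119) and Tlr4 (0.71, adjusted p = 0.131). Nfkbiz was at 97.5 and 89.2 CPM in the controls and at 136, 150 and 131 CPM in the knockout mice, so mouse 3 did not stand apart from mice 1 and 2 here.

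Of 23 genes that carry the receptor signal, 20 had a positive log2 fold change (median 0.19) and 1 had an unadjusted p under 0.05, the G protein subunit gene Gnai2 (0.29, adjusted p = 0.263). The next smallest p belonged to Gng2 (0.41, adjusted p = 0.291) and the receptor kinase gene Grk2 (0.27, adjusted p = 0.332). Of 8 tested proteases that trim or shed chemokines, Mmp14 (0.63, adjusted p = 0.0726) and Adam10, which sheds Cxcl16 and Cx3cl1 (0.59, adjusted p = 0.112), had an unadjusted p under 0.05. Dpp4, which inactivates Cxcl12, was at -0.26 (adjusted p = 0.309). Of 14 tested integrins, selectins and their ligands, Itgam, the integrin chain CD11b of myeloid cells, had the smallest p (0.95, adjusted p = 0.0726), and 2 had an unadjusted p under 0.05. It was at 22.3 and 25.7 CPM in the Prdm16fl/fl mice and at 42.6, 40.2 and 56.3 in the Ksp-Cre/Prdm16fl/fl mice, and like Ccr1 it was highest in mouse 3. Itgb1 (0.48, adjusted p = 0.13) and Selp (1.002, adjusted p = 0.433) came next.

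Of 9 tested chemokine-like genes that the naming rule leaves out, Ppbp, the platelet chemokine, was at 0.337 and 0.215 CPM in the Prdm16fl/fl mice and at 1.76, 3.31 and 0.533 in the Ksp-Cre/Prdm16fl/fl mice. All 3 knockout values lay above the controls, and the log2 fold change of 2.73 did not pass (adjusted p = 0.187). The chemerin receptor Cmklr1 (0.51, adjusted p = 0.321) and Gpr35 (0.41, adjusted p = 0.403) followed. Red blood cell markers were also higher in all 3 knockout libraries, at a summed 151, 150 and 40.5 CPM against 6.67 and 10.8 CPM in the controls, and their relation to Ppbp was not tested.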

How the data were processed

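Poly(A)-selected RNA of kidney cortex was sequenced as paired-end reads, 1 library per mouse, and filtered by the authors for adapters and low quality. The authors deposited, per gene and library, raw counts and the TPM and FPKM values computed from them. The submitters' processing notes name CASAVA, featureCounts 2.0.1, DESeq2 1.16.1 and the build hg38, which mouse genes cannot have. The aligner and the strand setting are not given in the sources used here, so overlapping and antisense genes are uncertain. In each file 5 broken lines were rejoined.

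Groups follow the sample labels. Counts were tested with edgeR 4.0.16 (R 4.3.3): filterByExpr, TMM scaling, glmQLFit and glmQLFTest (two-sided) over 16394 genes, with Benjamini-Hochberg adjustment over all of them and calls at an adjusted p under 0.05 with group means at least 1 apart on the log2 scale. The fit was tested on simulated data. Alternatives were DESeq2 1.42.0, other scalings and filters, limma 3.58.1 on log2(FPKM + 1) and log2(FPKM + 0.1), removal of a length and GC trend, the mouse number as a block, and leaving out each mouse. The labels name separate mice, and no 2 libraries agreed within sampling noise. The standard errors come from the quasi-likelihood fit and include the spread between mice. The limits given for counts of 0 cover counting error only.

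The members and lists were chosen with earlier results of these data known. Full values are given for members that were called or had an unadjusted p under 0.05, the member with the highest TPM of each role, and the receptor and ligand of 8 axes; of the other pathway genes the 3 with the smallest p per list. Other genes, among them those that passed without Ksp-Cre/Prdm16fl/fl mouse 3, were named after their values were seen. Values of 1 tested gene are not reported here, and counts over the family include it. Promoters came from RefSeq (GRCm38.p6).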

Additional observations from a re-analysis of the deposited data

How the results depend on the processing

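The direction of Ccr1 (log2 fold change 1.38 to 1.98), Cxcr2 (1.96 to 2.45) and Ccl28 (-2.34 to -1.44) held under every alternative that could test them, with adjusted p from 4.3e-07 to 0.496, 0.00392 to 0.525 and 0.000492 to 0.547. With all mice 1 gene was called higher (Ccr1) and 0 lower, while DESeq2 and no filter on low counts gave 2 and 1, the length and GC correction gave 0 higher, and leaving out single mice gave 0 to 8 and 0 to 1. At an unadjusted p under 0.05, single mice left out gave 2 to 18 higher, and for lower genes (3) 1 to 5, library size scaling, upper quartile scaling and limma with 0.1 gave 1 and no filter 6. The 8 genes without overlap became 5 with at least 10 counts in every library or either limma fit, and 10 to 28 without single mice. Library size scaling moved the median of all genes from 0.038 to 0.149. Mice that share a number did not deviate together (r = 0.019 and -0.018). The deviations of 2 controls mirror each other, so these values cannot decide whether the numbers mark more than single mice. With the number as a replicate block no gene of the whole table was called (0 higher and 0 lower). The same held without knockout mouse 1 and without knockout mouse 2. In the block fit Ccr1 had 1.78 (adjusted p = 0.16), and the median of the 42 genes was -0.30. Under the block the sign turned for Ccl2 (-0.63), Ccr2 (-0.49), Cx3cr1 (-0.57), Cxcl1 (-0.23), Cxcl10 (-1.29) and Cxcr3 (-0.35). It also turned for Ccl9 and Cxcl16 under library size scaling (0.090 and 0.094), limma with 1 (0.085 and 0.045) or 0.1 (0.089 and 0.045) and the length and GC correction (0.043 and 0.11), for Ccl5 under the last (0.032), for Cxcl10 under limma (-0.39 and -0.44), and for Ccl2 (-0.025) and Ccr2 (-0.014) under limma with 0.1. The ranges without single mice crossed 0 for Ccl2 (-0.31 to 0.70), Ccl6 (-0.026 to 0.29), Ccl9 (-0.18 to 0.14), Ccl21a (-1.53 to 0.45), Ccr2 (-0.11 to 0.67), Cxcl1 (-0.24 to 0.43), Cxcl10 (-0.87 to 0.57), Cxcl16 (-0.15 to 0.17), Cxcr3 (-0.31 to 0.36) and Cxcr4 (-0.13 to 0.26). The cause was not tested. The depth limits Cxcr2, Ccl3, Ccl4, Ccl17, Ccl19, Xcl1, Ccr7 and Ccr9, which had under 50 reads in every library.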
